A study of Mus musculus with 4 samples.

Results

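The genes described here encode proteins that attach ubiquitin to other proteins or remove it: ubiquitin itself, the activating (E1) and conjugating (E2) enzymes, several families of ligases (E3), and deubiquitinases. They were taken by name, as every polyA site whose gene name in the deposited table began with Fbxl, Fbxo, Fbxw, Ube, Uchl, Nedd4, or with Usp, Uba, Herc, Trim or Rnf followed by a digit, together with exact names such as Ubb. This rule took 209 of 9297 sites and 161 of 7202 gene names, and the rule itself uses no measured value, although it was set with earlier results of these data known. The rule goes by prefix, so it also held a pseudogene (Ube2d-ps), the conjugating enzyme for the ubiquitin-like protein NEDD8 (Ube2m), and the SUMO-activating subunit Uba2.

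The measurements came from 4 libraries made by cTag-PAPERCLIP, all from CA1 neuropil dissected from hippocampal slices of C57BL/6 mice with the genotype Camk2a-Cre x Pabpc1- cTag. PAPERCLIP crosslinks RNA to the polyA-binding protein PABPC1 with ultraviolet light and recovers short fragments (tags) next to the polyA tail. A tag is therefore taken to mark an mRNA 3′ end, with a count that does not grow with the length of the mRNA. Some tags may not mark such an end, as at the sites with Bc1-like sequence or before genomic runs of A described below. The GFP tag on PABPC1 was switched on by a Cre driven by the Camk2a promoter, which acts in excitatory forebrain neurons, and the neuropil is the layer beside their cell bodies, rich in dendrites but also containing axons and glial processes. Per the study's methods each replicate pooled tissue from several mice, the age of these mice is not in the labels, and all 4 libraries formed 1 group with no control group analysed here.

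In the ubiquitin system an E1 enzyme activates ubiquitin, passes it to an E2, and an E3 ligase brings the loaded E2 to the substrate. Many F-box proteins are substrate-binding subunits of SCF ligases, which also contain a cullin, Skp1 and a RING protein. Whether the Fbxl16 protein acts in this way was not tested. HECT, RING and U-box ligases are defined by their own catalytic or E2-binding domains. Deubiquitinases of the Usp and Uchl families cut ubiquitin off again. In neurons this system is known for protein turnover at synapses and during plasticity.

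The 3′ end of Fbxl16 is shown first because it held more tags than any other site of the set, and the ends of Uchl1, Rnf187, Ubb and Fbxw7 are shown beside it because the values below turn on them. Each line gives 30 bases around the listed site, 5′ to 3′ on the strand of the gene, read from the RefSeq copy of GRCm38 (mm10), with the AATAAA or ATTAAA polyA signal in capitals.
Fbxl16, chr17:25821232-25821261, plus strand: aaaaatatatATTAAAaaagttgtaaaaac
Uchl1, chr5:66687198-66687227, plus strand: taagaggaagAATAAAactttgctggtgag
Rnf187, chr11:58932290-58932319, minus strand: ttcagtgctgAATAAAgtggtttgctccag
Ubb, chr11:62553175-62553204, plus strand: aaaaaatgttAATAAAggttttgttgcatg
Fbxw7, chr3:84979165-84979194, plus strand: acttaagtgcAATAAAatgtgttttttcat
Of these 5 ends, only that of Fbxl16 used ATTAAA in place of AATAAA in its window. The listed position lay close to the signal in each: the hexamer of Fbxl16 began 2 bases downstream of the site, that of Uchl1 3 bases downstream and that of Fbxw7 1 base upstream.

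Together the 209 sites held 893 of the 34672 tags. Replicates 1 to 4 held 391, 232, 131 and 139 of these tags, out of 16017, 6609, 5947 and 6099 tags at all listed sites. Every share is a percentage of these sums, and tags outside the listed sites are not counted in them. That was 2.44%, 3.51%, 2.20% and 2.28% of the tags of each replicate, a mean of 2.61% ± 0.610 (SD, n = 4). Replicate 2 was highest, and its 95% Wilson interval (3.09% to 3.98%) did not overlap those of the other 3. A single gene, Fbxl16, held 38.0% of all tags of the set. With its site left out, the shares were 1.39%, 1.77%, 1.87% and 1.69%, with a mean of 1.68% ± 0.205 (SD, n = 4), and replicate 1 was lowest. Intervals, limits and tests on tags cover counting error only, and they treat each tag as a separate molecule. Whether PCR copies of a tag were collapsed is not given in the sources used here. If they were not, the intervals and p values understate even counting error. In pooled tissue, fewer cells of a type cannot be told apart from less RNA per cell.

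The libraries differed in ways that bear on all of these shares. Sites with sequence like Bc1, an abundant short noncoding RNA of dendrites, took 32.9%, 11.8%, 2.59% and 2.07% of the tags of replicates 1 to 4. Leaving out all Bc1-like sites, 2 sites of the set included, gave a share of the set of 3.63%, 3.84%, 2.26% and 2.33%, and a share without Fbxl16 of 2.06%, 1.87%, 1.92% and 1.72%. Beyond Fbxl16 the set therefore differed by 1.20-fold between the highest and lowest replicate on that scale. Markers of pyramidal neurons had tags for 8 of 10 genes and summed to 0.454% to 0.830% of a replicate, with none listed for Camk2a and Slc17a7 in the rows analysed here. All 8 astrocyte markers had tags (0.0984% to 0.325%), as did 6 of 8 oligodendrocyte markers (0.131% to 0.545%, Mal and Opalin at 0), 5 of 8 interneuron markers (0.0687% to 0.295%, Gad2, Slc32a1 and Vip at 0), and 2 of 8 microglial markers (0% to 0.0187%, with Cx3cr1, Csf1r, C1qb, Tmem119, P2ry12 and Aif1 at 0). Endothelial and blood markers ranged from 0.0312% to 1.28%, and nearly all of their tags came from the haemoglobin genes Hbb-b1 and Hbb-bt, with Cldn5, Pecam1, Hbb-bs and Hba-a2 at 0.

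Fbxl16 encodes an F-box protein with leucine-rich repeats. Its single site lay at position 25821240 on the plus strand of chromosome 17, in the 3′UTR, 1721 bases after the stop codon and 15 bases before the end of the GENCODE vM21 gene (25809085 to 25821255). The 3′UTR of its transcript with 6 exons is 1736 bases long and the coding sequence 1437 bases, so the tags fell at the distal end of the annotated 3′UTR, and no second end was listed for the gene. A long noncoding RNA, Gm26694, is annotated across the whole gene on the same strand (25794894 to 25964784), and tags at this site cannot be divided between both annotations. Among the next 60 genomic bases the longest run of A was 6, and the site carried no Bc1-like sequence.

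The Fbxl16 site held 168, 115, 20 and 36 tags in replicates 1 to 4, or 339 in all. These were 1.05% (95% Wilson interval 0.902% to 1.22%), 1.74% (1.45% to 2.08%), 0.336% (0.218% to 0.519%) and 0.590% (0.427% to 0.816%) of the tags of each replicate, with a mean of 0.929% ± 0.616 (SD, n = 4). Replicates 1 and 2 were high and replicates 3 and 4 low, and the intervals of the former did not reach those of the latter. The highest share was 5.17-fold the lowest, and 5.71-fold when Bc1-like tags were left out of the totals (1.56%, 1.97%, 0.345% and 0.603%). The site ranked 3, 3, 9 and 5 among all sites in replicates 1 to 4, and 3 over all tags of the table. Both sites with more tags overall carried Bc1-like sequence. Within the set, Fbxl16 made up 43.0%, 49.6%, 15.3% and 25.9% of the tags of replicates 1 to 4. The split between these pairs of replicates was not particular to Fbxl16. Outside the set, Kif5a (162, 139, 12 and 12 tags) and Psd (39, 39, 2 and 4) split the same way. Gpihbp1 (0, 0, 42 and 78) and Ankrd27 (0, 0, 14 and 14) split in reverse.

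Marker shares in the same libraries were uneven, and single genes carried much of each list. The summed pyramidal neuron markers were 0.830%, 0.817%, 0.454% and 0.541% of replicates 1 to 4. Ncdn, with 48, 39, 12 and 15 tags, gave 39 of the 54 tags of replicate 2, whereas Nrgn (32, 6, 6 and 9 tags) and Camk2b (9, 4, 5 and 5) were not high in that library. Oligodendrocyte markers summed to 0.281%, 0.545%, 0.185% and 0.131%, with Mbp at 20, 27, 6 and 2 tags. Astrocyte markers summed to 0.325%, 0.151%, 0.118% and 0.0984%, and the Wilson intervals of replicates 2 to 4 overlapped. Interneuron markers summed to 0.0687%, 0.0908%, 0.219% and 0.295%, of which Npy gave 4, 0, 6 and 12 tags. The endothelial and blood list was highest in replicate 3 (1.28%) and lowest in replicate 1 (0.0312%). The part of any of these in the Fbxl16 difference was not tested.

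**Figure D1:**
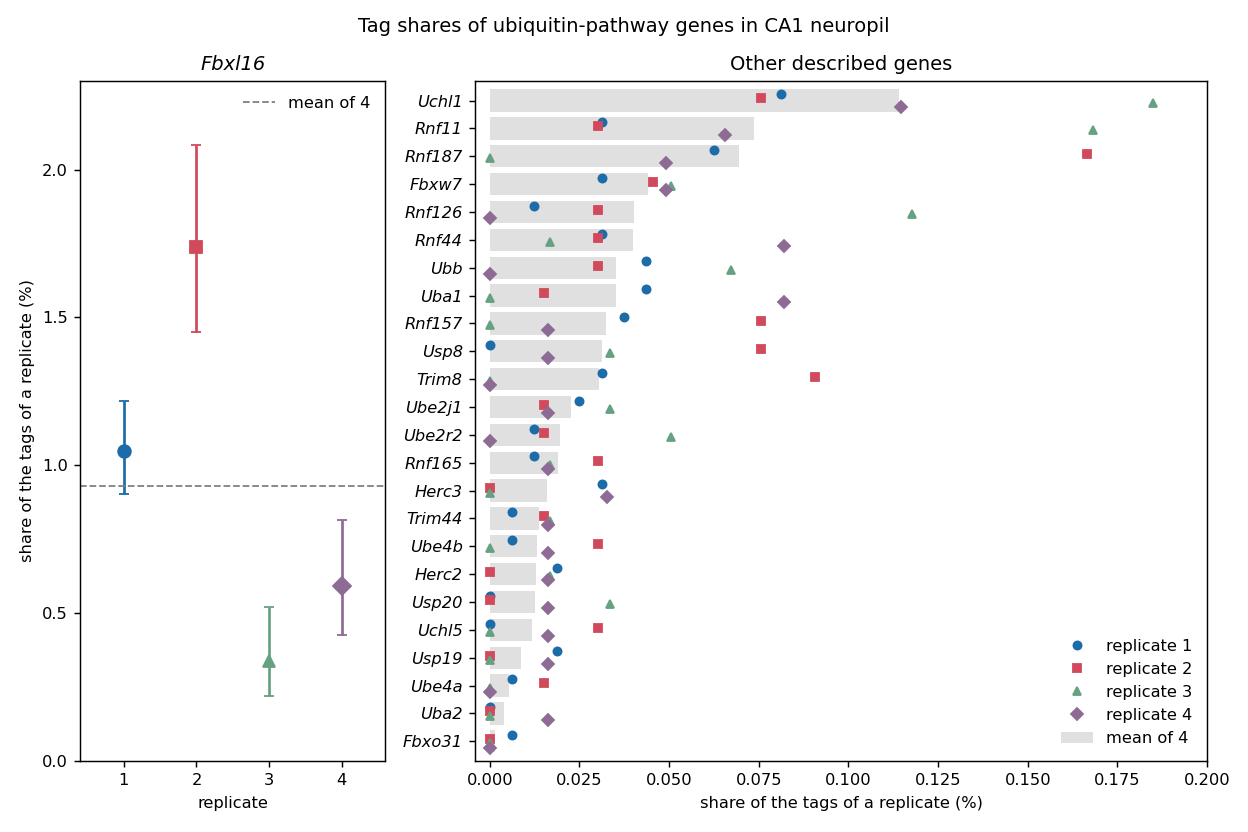
Share of the tags of each replicate (%) for Fbxl16 (left, with 95% Wilson intervals and the mean as a dashed line) and for other named genes (right, grey bars are means of 4 replicates, on a smaller scale). Every Fbxl16 value, from 0.336% to 1.74%, lies above the highest value of any other gene, 0.185% for Uchl1 in replicate 3.

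The other marker of the set, Fbxo31, stood at the opposite end by tags. The study reports 3′UTR isoforms of Fbxo31 that differ in localization, with in situ hybridization. The low count here therefore does not show that its mRNA is absent from neuropil. The F-box protein FBXO31 is known to direct cyclin D1 to degradation. Fbxo31 had 1 tag in replicate 1 and 0 in the other replicates, at position 121549461 on the minus strand of chromosome 8, 21 bases before the end of the gene. That is below the limit of 3 tags that a count of 0 allows, which came to 0.0187%, 0.0454%, 0.0504% and 0.0492% of replicates 1 to 4. The position was 2765 bases into a 3′UTR of 2786 bases, neither AATAAA nor ATTAAA occurred within 50 bases of it, and Gm20388 is annotated on the other strand.

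Most other members were seen only a few times. Over the 160 genes other than Fbxl16 the median was 2 tags, and the highest was 36. There were 64 genes with a single tag (39.8%, beside 43.7% of all genes in the table). Tags in 1 replicate only were found for 78 of 161 genes, beside 3787 of 7202 in the table. Tags in every replicate were found for 9 genes (5.59%, beside 7.76% of all genes). In order of mean share these included Fbxl16, Uchl1, Rnf11, Fbxw7, Rnf44, Ube2j1, Rnf165 and Trim44. Only Fbxl16 was separated from its neighbour in that order: its range over replicates did not overlap that of Uchl1, whereas each later gene overlapped the next.

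Differences between libraries were tested gene by gene across the whole table, for genes with at least 20 tags, by permuting tags between libraries (chi-square statistic, permutation test) with Benjamini-Hochberg adjustment over all genes tested. At an adjusted p under 0.05 the test called 149 of 211 genes, or 70.6%. Of the set, 4 genes had enough tags and 3 of these were called, which is near that background. Fbxl16 was called (adjusted p = 0.00027, permutation test, where the unadjusted p of 0.0001 was the smallest that 10000 permutations can give), as were Rnf11 (adjusted p = 0.00462) and Rnf187 (adjusted p = 0.00722). Uchl1 did not pass (adjusted p = 0.189, permutation test). With 1 library left out, Fbxl16 was called in all 4 cases. Rnf11 then always had fewer than 20 tags and was not tested, and the same held for Rnf187 without replicate 1 or replicate 2.

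Ubb, which encodes head-to-tail ubiquitin repeats, had 7, 2, 4 and 0 tags, a mean share of 0.0353% ± 0.0281 (SD, n = 4). Its site lay at position 62553178 on the plus strand of chromosome 11, 118 bases after the stop codon of a transcript whose 3′UTR is only 153 bases long. Replicate 3 was highest at 0.0673%, and the 0 in replicate 4 allows up to 0.0492%.

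Only 2 genes of the E1 group had tags. Uba1, the main activating enzyme for ubiquitin, had 7, 1, 0 and 5 tags (0.0352% ± 0.0361, SD, n = 4). They fell at a single site on the X chromosome (position 20682683, plus strand), 173 bases after the stop codon and 496 bases before the annotated gene end, with AATAAA starting 2 bases downstream. Its 3′UTR in the annotation runs to 669 bases, and no tags were listed at the distal end. Uba2, a subunit of the activating enzyme for SUMO, had 1 tag in replicate 4.

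The E2 conjugating enzymes were spread thin: 23 genes had 73 tags at 40 sites, and none reached 10 tags. Their summed share was 0.216% ± 0.0476 (SD, n = 4), from 0.180% to 0.286%. Ube2j1, which acts in degradation of proteins from the endoplasmic reticulum, was the only one with tags in every replicate, at 4, 1, 2 and 1 (0.0225% ± 0.00859). Of its 8 tags, 7 lay 26 bases before the gene end and 1 lay 48 bases after the stop codon, 2358 bases before that end. Ube2r2, an E2 that works with SCF ligases, had 2, 1, 3 and 0 tags at 4 sites, which lay 407, 774 and 2542 bases after the stop codon and 124702 bases past the gene end.

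HECT ligases had 29 tags over 8 genes (0.0939% ± 0.0605, SD, n = 4). Herc3 had 5, 0, 0 and 2 tags 28 bases before its gene end. Herc2, a very large ligase, had 3, 0, 1 and 1 tags, 4 of them 23 bases before the gene end and 1 at 373 bases before it. Ube3a, the ligase lost in Angelman syndrome and named here after its values were seen, had 0, 1, 4 and 0 tags at 4 sites, of which 1 was the only site of the set in a coding exon and another lay 852395 bases past the gene end, before a run of 30 A. The U-box ligases Ube4a (1, 1, 0 and 0 tags) and Ube4b (1, 2, 0 and 1) together came to 0.0186% ± 0.0192.

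The F-box group apart from Fbxl16 had 79 tags over 33 genes, and 19 of these genes had a single tag. Its summed share was 0.235% ± 0.0467 (SD, n = 4), with 33, 20, 12 and 14 tags in replicates 1 to 4. Fbxw7, which recognises cyclin E, Myc and Notch, led this group with 5, 3, 3 and 3 tags (0.0441% ± 0.00883), although 2 of its 3 tags in replicate 2 lay 62112 bases past the gene. No other gene of the group exceeded 6 tags. By subfamily and with Fbxl16 counted, 12 Fbxl genes had 359 tags, 16 Fbxo genes 36 and 6 Fbxw genes 23.

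RING ligases of the Rnf family made up the largest group by genes and, leaving Fbxl16 aside, by tags: 37 genes with 170 tags, or 0.507% ± 0.0584 (SD, n = 4). The group was also the most even relative to its mean among the roles, between 0.450% and 0.589%. Rnf187 had 10, 11, 0 and 3 tags, so its share ran from 0.166% in replicate 2 down to 0 in replicate 3, where a count of 0 allows up to 0.0504%. Rnf11, a small RING protein, went the other way. It had 5, 2, 10 and 4 tags, with 0.168% in replicate 3 against 0.0312%, 0.0303% and 0.0656% in replicates 1, 2 and 4. Rnf126, which acts in quality control of mislocalised proteins, was likewise highest in replicate 3 (2, 2, 7 and 0 tags). Rnf157 had 6, 5, 0 and 1 tags, with the 0 in replicate 3 as for Rnf187. Rnf44 had 5, 2, 1 and 5 tags and Rnf165 had 2, 2, 1 and 1. Within the group, then, Rnf187 and Rnf157 were highest in replicate 2, and Rnf11 and Rnf126 in replicate 3.

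TRIM proteins had 58 tags over 18 genes (0.174% ± 0.0867, SD, n = 4). Replicate 2 stood highest at 0.303%, and the other replicates lay between 0.115% and 0.144%. Trim8 had 5, 6, 0 and 0 tags, all in replicates 1 and 2. Trim44, a member of the family without a RING domain, had 1 tag in each replicate, 25 bases before its gene end. The high value of replicate 2 came with Trim33, a gene named here after its values were seen, which had 0, 8, 0 and 0 tags. These lay in an intron (chromosome 3, position 103324278), 34497 bases before the gene end, at sequence that holds 49 of the 63 Bc1 words searched, and whether the tags came from Trim33 was not tested. The only other member site with Bc1-like sequence was in an intron of Ube2g1 and had 1 tag.

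**Figure D2:**
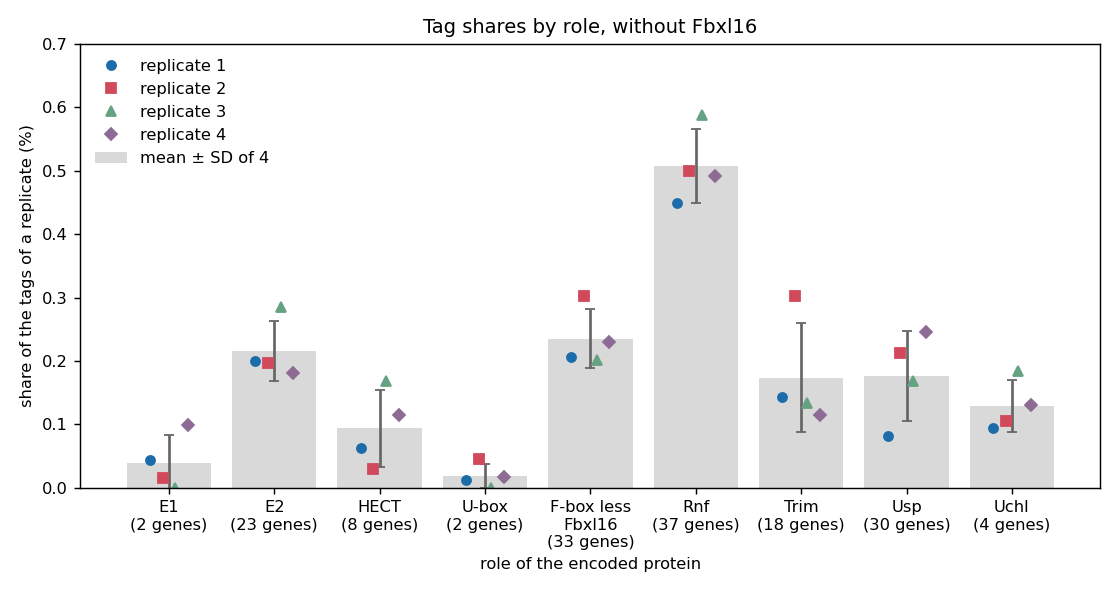
Summed share of the tags of each replicate (%) by role of the enzymes, without Fbxl16 (bars and error bars are the mean and SD of 4 replicates, cut at 0, and points are single replicates). The Rnf ligases lead at 0.507%, and the Trim group shows replicate 2 at 0.303% above the other 3 replicates.

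Usp deubiquitinases formed a broad, shallow group: 30 genes had 52 tags, 19 genes had a single tag, and the summed share was 0.177% ± 0.0712 (SD, n = 4). Usp8, which acts in endosomal sorting of receptors, had the most, at 0, 5, 2 and 1 tags, 13 bases before the end of the gene. Usp19, which occurs with an anchor in the endoplasmic reticulum, had 3, 0, 0 and 1 tags. Usp20 had 0, 0, 2 and 1 tags at a site 25.5 kb past its annotated end, so the name rests on the table and not on the annotation. At this depth single tags do not rank these genes.

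Uchl1, an abundant ubiquitin hydrolase of neurons, was the member with the most tags after Fbxl16. It had 13, 5, 11 and 7 tags, which is 0.0812%, 0.0757%, 0.185% and 0.115% of replicates 1 to 4, with a mean of 0.114% ± 0.0503 (SD, n = 4). Replicate 3 was highest and replicates 1 and 2 lowest, but the differences between libraries did not pass the test above. All 36 tags lay at position 66687205 on the plus strand of chromosome 5, 280 bases into a 3′UTR of 309 bases. Uchl5, a deubiquitinase that binds the proteasome, had 0, 2, 0 and 1 tags at a site 189 bases after the stop codon. Uchl3 and Uchl4 had 1 tag each, and the latter lay outside its gene. Uchl4 and Ube2d-ps resemble expressed genes of their families, and how tags with several matches were placed is not given in the sources used here.

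Of all 209 sites, 136 were seen in 1 replicate, 48 in 2, 19 in 3 and 6 in all 4. As shares these were 65.1%, 23.0%, 9.09% and 2.87%, beside 65.8%, 19.95%, 9.38% and 4.90% of all sites. Sites with tags in more than 1 replicate, the criterion of the study for neuropil ends, numbered 73 (34.9%, beside 34.2% of all sites). The annotation placed 172 sites (82.3%, beside 76.5%) in the 3′UTR of a gene on that strand, which for the Trim17 site was Hist3h2a. A further 23 were between genes, 11 were intronic, 2 were in noncoding exons and 1 was in a coding exon. The 3′UTR sites held 94.4% of the tags of the set. Recurrence followed this division, since 71 of 172 3′UTR sites (41.3%, beside 39.7% of all 3′UTR sites) but 2 of 34 intron and between-gene sites (5.88%, beside 16.3%) had tags in more than 1 replicate. The site of Usp20 was among these 2. A run of at least 10 genomic A within 60 bases downstream was present at 16 of those 34 sites (47.1%, beside 41.8% of all such sites in the table) and at 8 of the 172 3′UTR sites (4.65%, beside 5.99%).

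The sequence around the sites of the set was close to that around all sites. AATAAA or ATTAAA occurred within 50 bases on either side at 169 sites (80.9%, beside 78.1%), at 72 of them upstream and at 97 only downstream of the listed position. How that 1-base position was set within a cluster of tags is not given in the sources used here, so distances to a signal, to the gene end and to a run of A are from the position as listed. AATAAA alone was found at 67.0% (beside 64.4%) and ATTAAA at 20.6% (beside 19.8%). Median GC content was 37.3% over 100 bases on either side, the same as for all sites. In the 200 bases upstream on the strand of the gene, the cytoplasmic polyadenylation elements TTTTAT and TTTTAAT occurred at 19.6% and 9.09% of the sites (beside 22.6% and 8.34%), and the Pumilio motif TGTANATA at 6.22% (beside 8.33%). These motifs are letters found in a window and not evidence of binding. Of the sites, 104 (49.8%, beside 42.1%) lay in the last 100 bases of the annotated gene, at a median of 23.5 bases before its end. Median distance from the stop codon was 1048 bases (990 for all sites) and ranged from 48 to 7685.

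**Figure D3:**
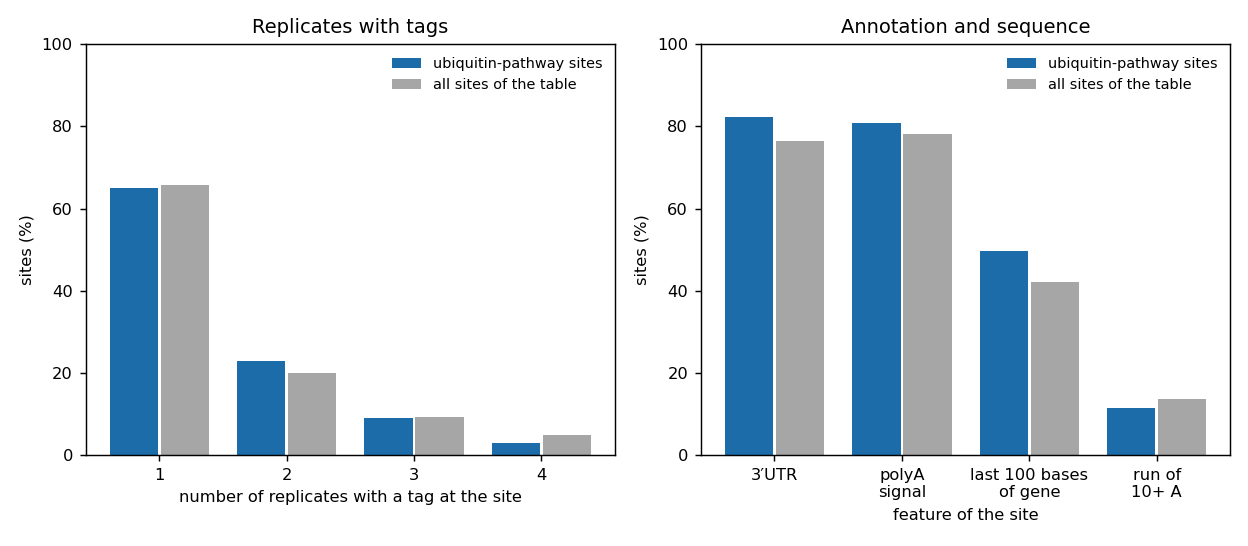
Percent of the 209 sites of the set (blue) and of all sites in the table (grey) by number of replicates with a tag (left) and by annotation and sequence (right). Sites in more than 1 replicate make up 34.9% of the set and 34.2% of the table, those in all 4 replicates 2.87% and 4.90%, with 82.3% against 76.5% of sites in a 3′UTR.

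Several sites were listed for 34 of the 161 genes (21.1%, beside 21.7% of all genes), but recurrent tags at more than 1 site were found only for Rnf11, Fbxw7 and Trim8. In Rnf11 the site 1680 bases after the stop codon had 3, 2, 8 and 4 tags, and the site 1269 bases after it, 411 bases upstream, had 1, 0, 1 and 0. Both stopped well short of the annotated 3′UTR of 3156 bases, and neither AATAAA nor ATTAAA was found within 50 bases of either. Fbxw7 had 4, 0, 3 and 3 tags at 1638 bases, 22 bases before the gene end, and 1, 1, 0 and 0 at 85 bases, where a run of 11 A follows in the genome. Its remaining 2 tags, both from replicate 2, lay 62112 bases past the gene. Trim8 had 3, 4, 0 and 0 tags at 768 bases and 2, 2, 0 and 0 at 635 bases of a 1185-base 3′UTR, and the proximal site is followed by a run of 20 A.

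Summed over the 3 genes, the distal site held 34 tags and the proximal site 8. The distal share was 71.4%, 66.7%, 91.7% and 100% in replicates 1 to 4 (82.4%, SD 15.95, n = 4), with the distal site ahead in every replicate. No test was made on this sum. No member had the 20 tags set for the test of site usage between replicates. At 10 tags, 3 members entered that permutation test and none was called, beside 10.5% of the 105 genes tested. Adjusted p values by that permutation test were 0.592 for Fbxw7, 1 for Rnf11 and 1 for Trim8, and the unadjusted p of each was above 0.05 as well (0.257, 1 and 1).

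**Figure D4:**
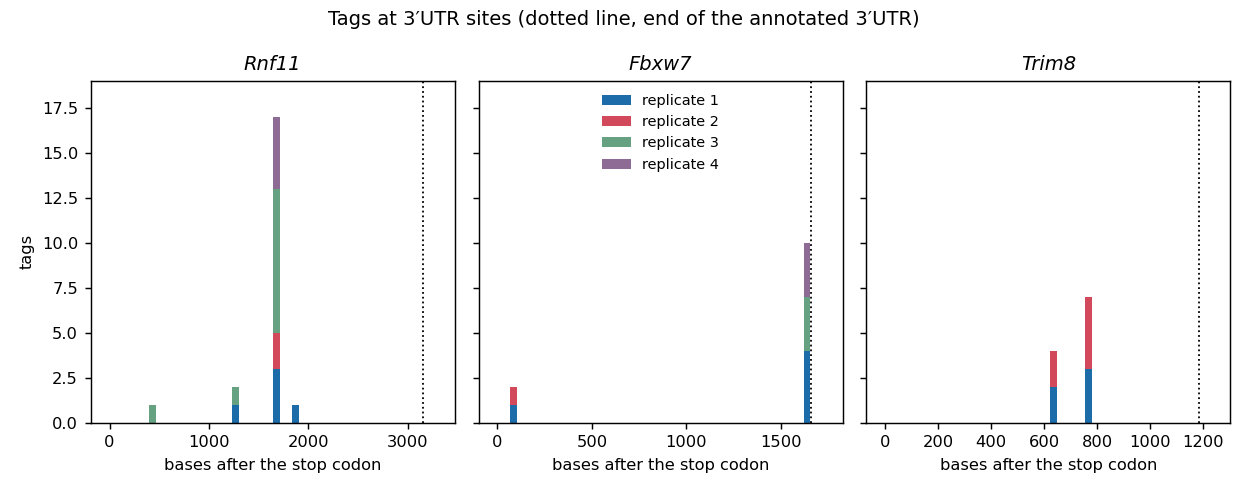
Tags at the 3′UTR sites of Rnf11, Fbxw7 and Trim8 against the distance after the stop codon in bases, stacked by replicate, with the end of the annotated 3′UTR as a dotted line. Rnf11 peaks at 1680 bases with 17 tags, Fbxw7 at 1638 bases with 10, next to its annotated end, and Trim8 at 768 bases with 7.

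Other genes of the pathway, outside the name rule, were similarly sparse. Of 21 listed names of subunits and regulators of SCF and other cullin ligases (Skp1 under both of its symbols), 14 had tags, 37 in all (0.124% ± 0.0691, SD, n = 4). Cul3 and Rbx1, a cullin scaffold and the RING subunit of cullin ligases, had 5 tags each. Cul1 and Skp1a, the partners of F-box proteins in SCF ligases, had 4 (1, 0, 3 and 0) and 3 (2, 0, 1 and 0). F-box proteins with other names had tags for 4 of 6 genes, 12 tags in all, led by Kdm2a with 5. None of these approached the 339 tags of Fbxl16. Deubiquitinases with other names had tags for 10 of 20 genes and 25 tags (0.0754% ± 0.0351), led by Josd1 with 6. Ubiquitin-like modifiers had tags for 10 of 14 genes and 46 tags (mean share 0.1302%, SD 0.0602), led by Gabarapl1, a protein of autophagosome membranes, with 5, 2, 1 and 2.

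Other ubiquitin ligases had tags for 19 of 32 genes and 76 tags, of which Cblb had 37. Of these 37, 33 came from replicate 2 at a Bc1-like site 945377 bases past the end of Cblb, and its own 3′UTR had 2. Without Cblb the list had 39 tags (0.132% ± 0.0891, SD, n = 4), and its members had at most 5 tags each.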

How the data were processed

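cTag-PAPERCLIP tags of 4 CA1 neuropil libraries were analysed from the table of tag counts per polyA site that the authors deposited, whole numbers that had not been normalized. Per the study's methods, tags were mapped to the genome and clustered with CTK. The submitters' processing notes name cutadapt, Novoalign and mm10, whose versions, like the collapsing of duplicate tags and the placing of tags with several matches, are not given in the sources used here. Replicates were separate pools of mice, and some low-input material was pooled after barcoding.

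Sites were annotated on their own strand with GENCODE vM21, and sequence was read from RefSeq GRCm38. None of the 9294 sites on numbered chromosomes, X and Y lay past a chromosome end. Bc1-like sites had 10 or more of 63 words of 12 bases from Bc1 within 75 bases. Shares are percentages of all tags of a replicate at the listed sites, with 95% Wilson intervals. There is no contrast, so no count model was fitted. Permutation tests with 10000 resamples, two-sided by construction, compared single genes between libraries, with Benjamini-Hochberg adjustment over all genes tested, and were tested on simulated data. Their p values measure libraries against the sampling of tags.

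The members and gene lists were chosen with earlier results of these data known. Named were Fbxl16, Fbxo31, genes with tags in all 4 replicates or at least 10 tags, the top 2 genes of roles with fewer than 2 such genes, genes with several recurrent sites, genes called in a test, and sites outside their gene with at least 3 tags. Other genes were named after their values were seen, and some members are not reported here. Alternatives left out a replicate, changed totals, site filters, signals, names and tag minimums. Python 3.11.15, numpy 2.4.6, pandas 2.3.3, scipy 1.17.1, pysam 0.24.0 and matplotlib 3.10.9 were used.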

Additional observations from a re-analysis of the deposited data

Results flagged for a closer look

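Of 39 shares examined for a replicate far from the rest, 5 were singled out because the gap from 1 replicate to its nearest neighbour took up nearly all of the range over the 4 replicates (Dixon's criterion for 4 samples). Chance singles out about 1 in 20 groups of continuous values, and that rate does not apply to counts this low, where a gene with a single tag always meets the criterion. Fbxo31 had 0.00624% in replicate 1 and 0 in the others, and Uba2 had 0.0164% in replicate 4 and 0 in the others, each from a single tag. Herc2 had a share of 0 in replicate 2, and the others lay between 0.0164% and 0.0187%. Trim44 had 1 tag in every replicate, and its share was 0.00624% in replicate 1, where 1 tag was 1 of 16017. The Trim group had 0.303% in replicate 2, which includes the 8 Bc1-like tags of Trim33.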

How the results depend on the processing

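Leaving out each replicate in turn gave a share of the set of 2.31% to 2.74%, a share of Fbxl16 of 0.658% to 1.13%, 82.3% to 85.2% of sites in a 3′UTR, 43 to 53 sites with tags in more than 1 replicate, and a distal share of 75.7% (2 genes left) to 88.0% (1 gene left), with no gene left without replicate 1. Members called for share then numbered 1 to 2: 1 of 2 tested without replicate 1 (beside 85 of 112 genes) or replicate 2 (82 of 137), and 2 of 3 without replicate 3 (111 of 158) or replicate 4 (97 of 145). No member had enough tags to be tested for site usage in these runs, so the 0 calls there carry no information. Without the Fbxl16 site, an alternative added after seeing the data, the share of the set was 1.68%. Asking for at least 2 tags in more than 1 replicate left 22 sites. Sites in a 3′UTR came to 97.3% among those with tags in more than 1 replicate and to 88.6% without sites before a run of A, also added after seeing the data. A polyA signal was found at 34.4% of sites upstream of the listed position only and at 67.0% with AATAAA alone. With all listed sites the distal share was 62.6%. Members called for share numbered 5 of 12 tested at 10 tags (beside 219 of 533 genes) and 1 of 1 at 50 tags (beside 48 of 56). No paired analysis was possible because there is 1 group. Of the other 26 named genes, 18 had a mean share that moved by over 1.5 times when 1 replicate was left out, among them Rnf11 (0.0424% without replicate 3), Rnf126 (0.0142% without replicate 3), Rnf187 (0.0372% without replicate 2), Rnf157 (0.0180% without replicate 2), Trim8 (0.0104% without replicate 2), Usp8 (0.0167% without replicate 2), Uba1 (0.0196% without replicate 4) and Rnf44 (0.0261% without replicate 4). With 1 to 3 tags per gene, most members cannot be ranked at this depth.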
